A study of Mus musculus with 3 samples.

Results

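Prostaglandins and leukotrienes are lipid messengers made from arachidonic acid. This account follows 9 genes of their synthesis and sensing, Ptgs1, Ptgs2, Ptges, Hpgds, Alox5, Alox5ap, Lta4h, Ltc4s and Ltb4r1, in single cells of mouse liver. The 9 were chosen by symbol from 34099 measured genes, and all 9 had counts in each of the 3 libraries. Mice received 500 mg/kg of paracetamol (acetaminophen, APAP), which kills hepatocytes. At 6 h they were infused with PBS, with native mesenchymal stromal cells (native MSC), or with mesenchymal stromal cells engineered to bear bispecific polyvalent peptides (engineered MSC). Livers were taken at 4 days. The labels give no strain, age or sex of the mice and no source of the infused cells, and all 3 groups had paracetamol, so there is no uninjured liver.

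Cyclooxygenases, the products of Ptgs1 and Ptgs2, turn arachidonic acid into a prostaglandin precursor. Ptges then makes prostaglandin E2 and Hpgds prostaglandin D2. On the other branch, Alox5 works with the membrane protein encoded by Alox5ap to make leukotriene A4, which Lta4h turns into leukotriene B4 and Ltc4s into the cysteinyl leukotriene C4. Ltb4r1 is the high-affinity receptor of leukotriene B4, which draws neutrophils and monocytes towards a site of injury. Ptgs1 is known as the constitutive cyclooxygenase and Ptgs2 as the one that inflammatory signals induce. In liver, Kupffer cells and sinusoidal endothelium are known sources of prostaglandins.

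Each group was 1 mouse and 1 library, so the spread between animals is unknown and no test between groups was made. Every interval given is an exact 95% interval that covers counting error only. Transcripts were counted as unique molecular identifiers (UMIs). The libraries held from 62564254 to 84950721 UMIs in 10739 to 11479 barcodes, and from 9181 to 9540 cells were kept, with a median of 5770 UMIs per cell in PBS, 5734.5 in native MSC and 3667 in engineered MSC. From 39 to 46 barcodes were shared by any pair of libraries. Cells were clustered without the 9 genes and without the 42 other pathway genes described at the end. Clusters were named from marker genes and are called "like" a type, since no protein was measured. A level is the sum of UMIs of a gene over the cells of a class, scaled to the total UMIs of that class as CPM.

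The 3 livers differed widely in which cells were recovered. Neutrophil-like cells were 6.44% of kept cells in PBS, 26.6% in native MSC and 2.63% in engineered MSC (614, 2492 and 241 cells). Monocyte-like cells were 27.4%, 30.1% and 2.89%, macrophage-like cells 21.2%, 9.33% and 4.25%, and sinusoidal endothelium-like cells 10.8%, 0.994% and 17.6%. Kupffer cell-like cells were 7.27%, 0.396% and 4.65%. Any level over a whole library therefore moves with these shares as well as with the level in each cell, and recovery from digested tissue may differ from the makeup of the tissue.

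Over all cells of a library, Ptgs2 stood at 97 CPM in PBS (94.7 to 99.2), 247 in native MSC (243 to 250.3) and 46.1 in engineered MSC (44.3 to 48). Alox5ap stood at 384, 978 and 176 CPM, Alox5 at 3.99, 20.8 and 2.81 CPM, and Ltb4r1 at 14.1, 63.8 and 7.25 CPM in the same order. These 4 genes were all highest in native MSC and lowest in engineered MSC, the order of both the neutrophil-like and the monocyte-like shares. Between the livers with infused cells, the engineered MSC level was 5.35-fold lower for Ptgs2 (5.12 to 5.59), 5.57-fold lower for Alox5ap, 7.42-fold lower for Alox5 and 8.81-fold lower for Ltb4r1. Ptgs1 took the opposite order, with 70.3 CPM in PBS, 44.9 in native MSC and 108 in engineered MSC, and Hpgds was highest in PBS, with 82.9, 26.5 and 23.3 CPM. Lta4h differed least, with 38, 37.3 and 44.9 CPM, and the interval of its native MSC to PBS ratio spanned 1 (0.98, from 0.93 to 1.04). Ltc4s stood at 8.88, 28.7 and 16 CPM. Ptges was sparse, with 2.34, 3.78 and 1.02 CPM, the same order as the 4 genes above.

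**Figure D1:**
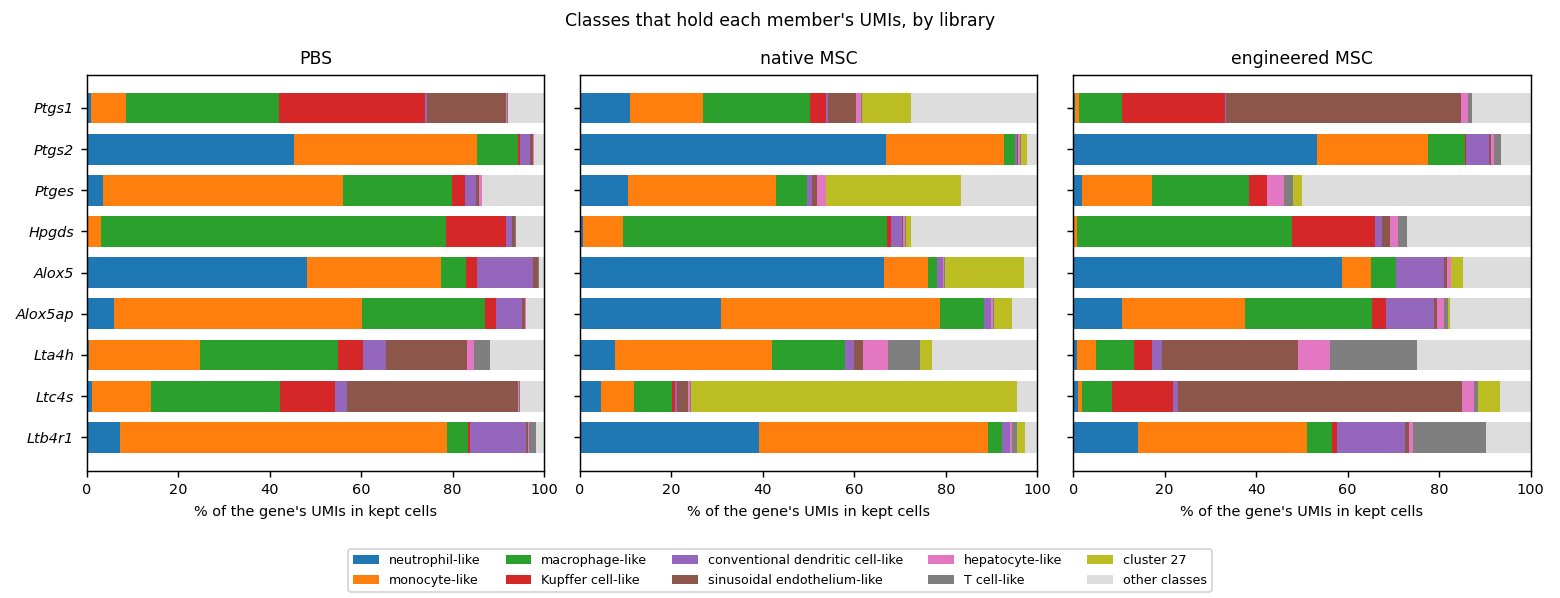
Share of each gene's UMIs in kept cells (percent, horizontal axis) that came from each cell class (colours), with 1 panel per library and 1 bar per gene. Neutrophil-like and monocyte-like cells held most Ptgs2 in all 3 libraries, whereas most Ltc4s came from sinusoidal endothelium-like cells in engineered MSC (62.1%) and from cluster 27 in native MSC (71.1%).

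The cells behind these sums changed with the library. Neutrophil-like cells held 45.4% of Ptgs2 UMIs in PBS, 67% in native MSC and 53.3% in engineered MSC, and monocyte-like cells 39.9%, 25.7% and 24.4%. Ptgs1 came mainly from macrophage-like (33.5%) and Kupffer cell-like cells (32%) in PBS, but 51.4% of it came from sinusoidal endothelium-like cells in engineered MSC. Macrophage-like cells held 75.4%, 57.6% and 46.8% of Hpgds. For Ltb4r1 the monocyte-like share was 71.5%, 50% and 37.1%, and the neutrophil-like share 7.28%, 39.1% and 14.1%. The plot of UMI sources shows these shifts for all 9 genes.

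The 2 cyclooxygenase genes were read in different cells, and Alox5 in the same class as Ptgs2. The 250 bases before the start of each of these 3 genes are therefore shown, from the RefSeq promoter table of build GRCm38.p6. The files use GRCm39, so the coordinates serve only to place the sequences. The Ptgs2 window is chr1:150099781-150100030 on the plus strand, the Ptgs1 window chr2:36230176-36230425 on the plus strand and the Alox5 window chr6:116461179-116461428 on the minus strand. Capitals mark exact matches on either strand to TTGCGCAA, the palindromic core bound by C/EBP factors of myeloid cells, and to GGGCGG, the GC box.

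Ptgs2: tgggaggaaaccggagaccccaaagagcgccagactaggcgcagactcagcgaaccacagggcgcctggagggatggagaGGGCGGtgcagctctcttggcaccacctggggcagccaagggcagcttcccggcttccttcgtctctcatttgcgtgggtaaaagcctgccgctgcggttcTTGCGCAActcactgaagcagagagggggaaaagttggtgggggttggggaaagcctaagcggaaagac
Ptgs1: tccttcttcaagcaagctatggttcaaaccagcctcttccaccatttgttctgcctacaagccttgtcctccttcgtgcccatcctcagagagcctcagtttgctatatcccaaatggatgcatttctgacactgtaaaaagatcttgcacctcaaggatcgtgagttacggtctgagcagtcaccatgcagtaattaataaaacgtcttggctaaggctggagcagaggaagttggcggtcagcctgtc
Alox5: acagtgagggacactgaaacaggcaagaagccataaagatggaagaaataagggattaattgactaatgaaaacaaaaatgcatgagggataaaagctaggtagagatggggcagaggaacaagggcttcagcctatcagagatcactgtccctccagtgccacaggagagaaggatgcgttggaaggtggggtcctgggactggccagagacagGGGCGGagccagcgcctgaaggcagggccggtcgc

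The Ptgs2 window held 1 match to TTGCGCAA, whose first base lay 69 bases before the start, and 1 GC box, and 61.6% of its bases were G or C. Of 32851 windows of this length, 0.164% held TTGCGCAA and 32.7% held a GC box. The Ptgs1 window held neither motif, at 48% G or C, and the Alox5 window held 1 GC box, at 52.8%. None of the 8 members with a window in the table had a match to TATAAA, which 12.4% of all windows held. Alox5ap had no entry. A match describes letters only, and binding was not measured.

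Levels within classes were compared wherever a class had at least 50 cells in both libraries and a gene at least 20 UMIs in the pair. A difference is called past the fold when its whole interval lay beyond 1.5-fold. Between engineered MSC and PBS, 67 of 99 gene and class pairs had enough UMIs, and 3 were higher and 7 lower past the fold, or 4.48% and 10.4%. Over all genes in the same classes, 6.60% were higher and 4.24% lower. Between native MSC and PBS, 53 of 81 pairs had enough UMIs, and 9 were higher and 2 lower, or 17% and 3.77%, beside 3.31% and 4.27% over all genes. Between engineered MSC and native MSC, 61 of 99 pairs had enough UMIs, and 1 was higher and 13 lower, or 1.64% and 21.3%, beside 5.58% and 2.51% over all genes. The median log2 ratio over the pairs of the 9 genes was -0.02, 0.31 and -0.24 in these 3 comparisons, and over all genes -0.01, -0.1 and 0.08. The comparisons share libraries, so they are not independent of each other. The shares over all genes were not matched for UMI count, here and for the other pathway genes below. A gene with more UMIs has a narrower interval and is called more readily at the same ratio.

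**Figure D2:**
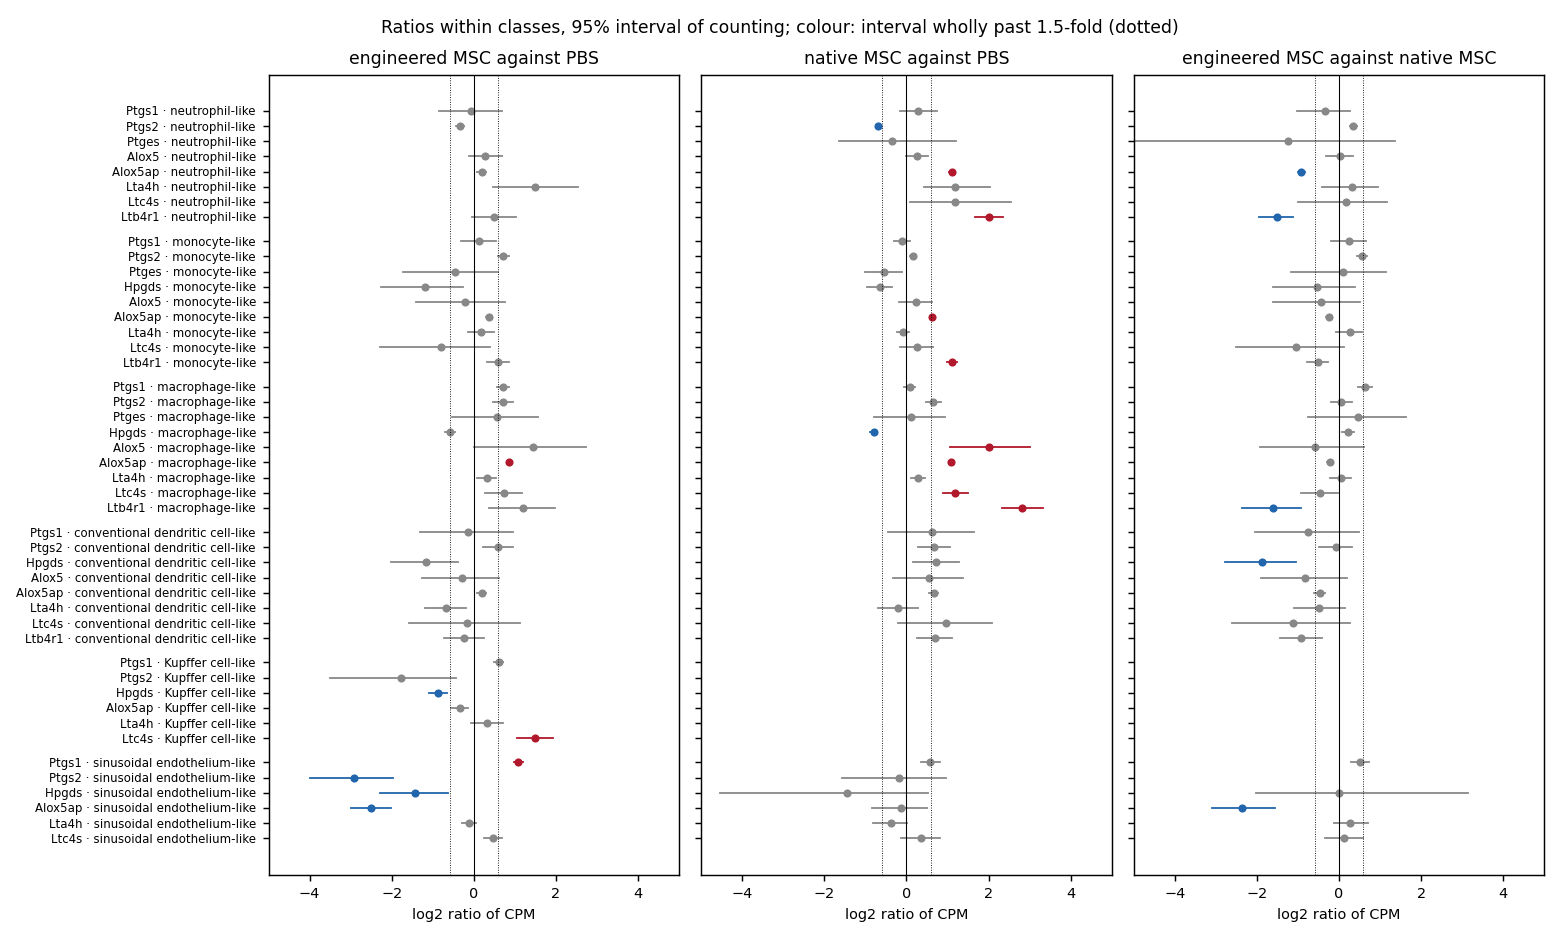
Log2 ratio of levels between libraries (horizontal axis, 1 panel per comparison) for members with enough UMIs in 6 cell classes, with 95% counting intervals and dotted lines at 1.5-fold. Coloured points have their whole interval beyond a line; in native MSC against PBS, 8 of the 9 higher pairs are shown, and the other is Alox5ap in hepatocyte-like cells.

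Among classes with at least 50 cells, Ptgs2 was highest in neutrophil-like cells in each library. Its level there was 2351 CPM in PBS (2270 to 2434), 1457 in native MSC (1431 to 1484) and 1857 in engineered MSC (1756 to 1963). The next class, monocyte-like cells, stood at 172, 192 and 283 CPM, conventional dendritic cell-like cells at 47.6, 75.8 and 71.4, and macrophage-like cells at 22, 34.5 and 35.8. At least 1 UMI of Ptgs2 was found in 84% of neutrophil-like cells in PBS and in 68.9% in both other libraries. With every cell thinned to 1000 UMIs, these shares were 72.8%, 53.6% and 60.3%. In B cell-like cells, taken for comparison, they were 0.535%, 1.76% and 0.064%. The share in neutrophil-like cells was thus far above that of B cell-like cells in every library. Of the 614, 2492 and 241 cells, 567, 2399 and 234 reached 1000 UMIs and entered the thinned values. Summed hepatocyte markers in the class, all 8 of 8 detected, were 504, 1527 and 6945 CPM, summed erythroid markers 12.6, 8185 and 104 CPM, and summed neutrophil markers 41186, 96355 and 74099 CPM, and the part of the first 2 sums was not tested.

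Across the class, Ptgs2 was lower in native MSC than in PBS by 1.61-fold (1.55 to 1.68), but the class held different clusters in each library. Cluster 3, led by Ptgs2 itself, Il1r2 and Hdc, made up 80.3%, 45.9% and 26.1% of the class in PBS, native MSC and engineered MSC. Cluster 7, led by Retnlg, S100a9 and Ly6g, held most of the rest in native MSC (1342 cells), and cluster 29, led by Slfn4 and Hcar2, held 130 of the 241 cells in engineered MSC. Within cluster 3 the direction was reversed, with 2623 CPM in PBS, 3481 in native MSC and 4257 in engineered MSC, a native MSC to PBS ratio of 1.33 (1.27 to 1.39) and an engineered MSC to PBS ratio of 1.62 (1.49 to 1.77). Within cluster 7 the levels were 1348, 485 and 440 CPM, 2.78-fold lower in native MSC than in PBS (2.49 to 3.1). Cluster 29 stood at 1601 CPM in engineered MSC. So the highest and the lowest neutrophil levels of Ptgs2 both lay in livers with infused cells, in different clusters. Ptgs2 was left out of the clustering, but genes of like level, such as Slc7a11 and Il1b (r = 0.97 and 0.96), were not. The clusters are therefore not independent of Ptgs2.

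**Figure D3:**
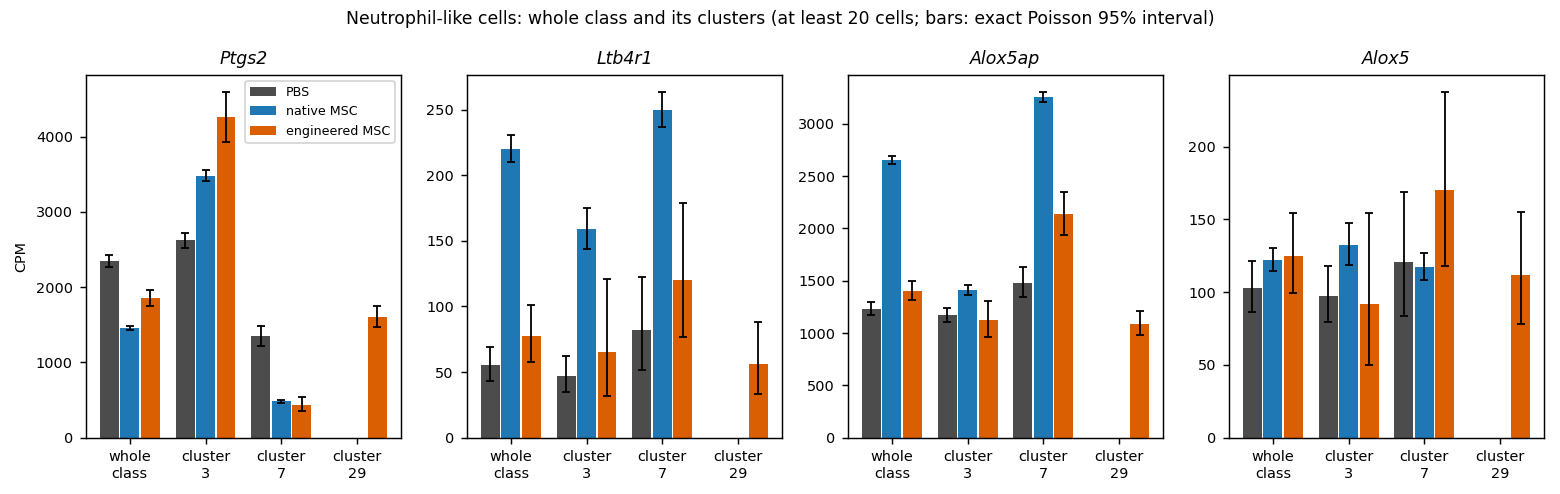
Level (CPM, linear axis from 0) of Ptgs2, Ltb4r1, Alox5ap and Alox5 in neutrophil-like cells as a whole and in clusters 3, 7 and 29, with 1 bar per library and 95% Poisson intervals. In cluster 3 Ptgs2 stands at 2623 CPM in PBS and 4257 in engineered MSC, in cluster 7 at 1348 in PBS and at 485 and 440 in native MSC and engineered MSC, and cluster 29 has a bar for engineered MSC only.

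Cluster 3 was checked for eosinophils, with genes chosen after the values were seen. Epx and Prg2, which encode eosinophil granule proteins, had 0 UMIs in cluster 3 of every library. The upper bound of the interval was 3.48 CPM in PBS, 1.42 in native MSC and 24.2 in engineered MSC. The neutrophil growth factor receptor gene Csf3r was detected in 92.9%, 87.8% and 84.1% of its cells. Siglecf, a gene of eosinophils and of some tissue neutrophils, stood at 28.3, 94.5 and 91.8 CPM in cluster 3 and at 7.11, 16.3 and 5 CPM in cluster 7.

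Monocyte-like cells also held Ptgs2, with the engineered MSC level 1.64-fold that of PBS (1.5 to 1.8), not past the fold. The class held different clusters here too. In engineered MSC, 81 of its 265 cells (30.6%) were in cluster 32, which stood at 15.9 CPM of Ptgs2 (6 UMIs). That cluster had no cell of PBS or native MSC. Clusters 6 and 32 were named from patrolling monocyte markers. Cluster 6 made up 41.9% of the class in PBS, 15% in native MSC and 8.68% in engineered MSC. In monocyte cluster 0 the levels were 124, 175 and 301 CPM, in cluster 2 they were 283, 280 and 442 CPM, and in cluster 6 they were 56.4, 38.5 and 16 CPM, the last from 2 UMIs. Clusters 0 and 2 were thus highest in engineered MSC. Engineered MSC had few cells in them, 91 and 70.

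Ptgs1 was highest in resident and endothelial classes. Kupffer cell-like cells stood at 299.7 CPM in PBS (285 to 315) and 456 in engineered MSC (431 to 482), and the 37 such cells of native MSC at 464 (382 to 558). At least 1 UMI was found in 67.6% of these cells in PBS and 76.1% in engineered MSC, and in 23.1% and 32.9% after thinning. B cell-like cells had 0.535% and 0.319% after thinning. The engineered MSC to PBS ratio was 1.52 (1.41 to 1.64), not past the fold, and it was 1.74 in Kupffer cluster 14 and 1.42 in Kupffer cluster 25. Cluster 25 made up 11.5% of Kupffer cell-like cells in PBS and 35.4% in engineered MSC, and held no cell of native MSC. It carried endothelial transcripts as well: all 7 sinusoidal endothelium markers were detected, with a sum of 2425 CPM in PBS and 5660 in engineered MSC, against 146 and 211 CPM in cluster 14. Their part in the Kupffer values of the class was not tested, and cluster 14 gives those values without these cells. Sinusoidal endothelium-like cells stood at 119 CPM in PBS (112 to 128), 179 in native MSC (154 to 206) and 253 in engineered MSC (243 to 262). The engineered MSC level was 2.12-fold that of PBS (1.96 to 2.29), past the fold.

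This endothelial difference rested on different clusters. All 1028 cells of PBS were in cluster 12 and 1548 of the 1619 cells of engineered MSC in cluster 5, which held no cell of PBS. Within cluster 12 the levels were 119, 173 and 155 CPM, an engineered MSC to PBS ratio of 1.3 (1.1 to 1.53). Vascular endothelium-like cells were over 50 only in engineered MSC, at 356 CPM in 153 cells, and 42 such cells in each of the others gave 126 CPM in PBS and 314 in native MSC. Macrophage-like cells had 59.7, 62.9 and 97.8 CPM of Ptgs1, and in macrophage cluster 10 the level was 50.9, 60.6 and 105 CPM. The 24 to 37 mesothelial cell-like cells per library had 332, 350 and 213 CPM.

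Neutrophil-like cells carried little Ptgs1, at 35.7, 43.2 and 34.1 CPM. In cluster 3, however, it stood at 39.6 CPM in PBS (42 UMIs), 116 in native MSC (302 UMIs) and 112 in engineered MSC (17 UMIs), 2.93-fold higher in native MSC than in PBS (2.12 to 4.15). In native MSC, 14.4% of neutrophil-like cells with a Ptgs2 UMI also had one of Ptgs1, against 3.74% of those without. The cells with Ptgs2 were not the deeper ones there, with a median of 2642 against 3475 UMIs. In engineered MSC the same shares were 10.2% and 1.33%, from 18 cells with a Ptgs1 UMI, of which 17 also had one of Ptgs2. In PBS they were 6.98% and 7.14%.

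**Figure D4:**
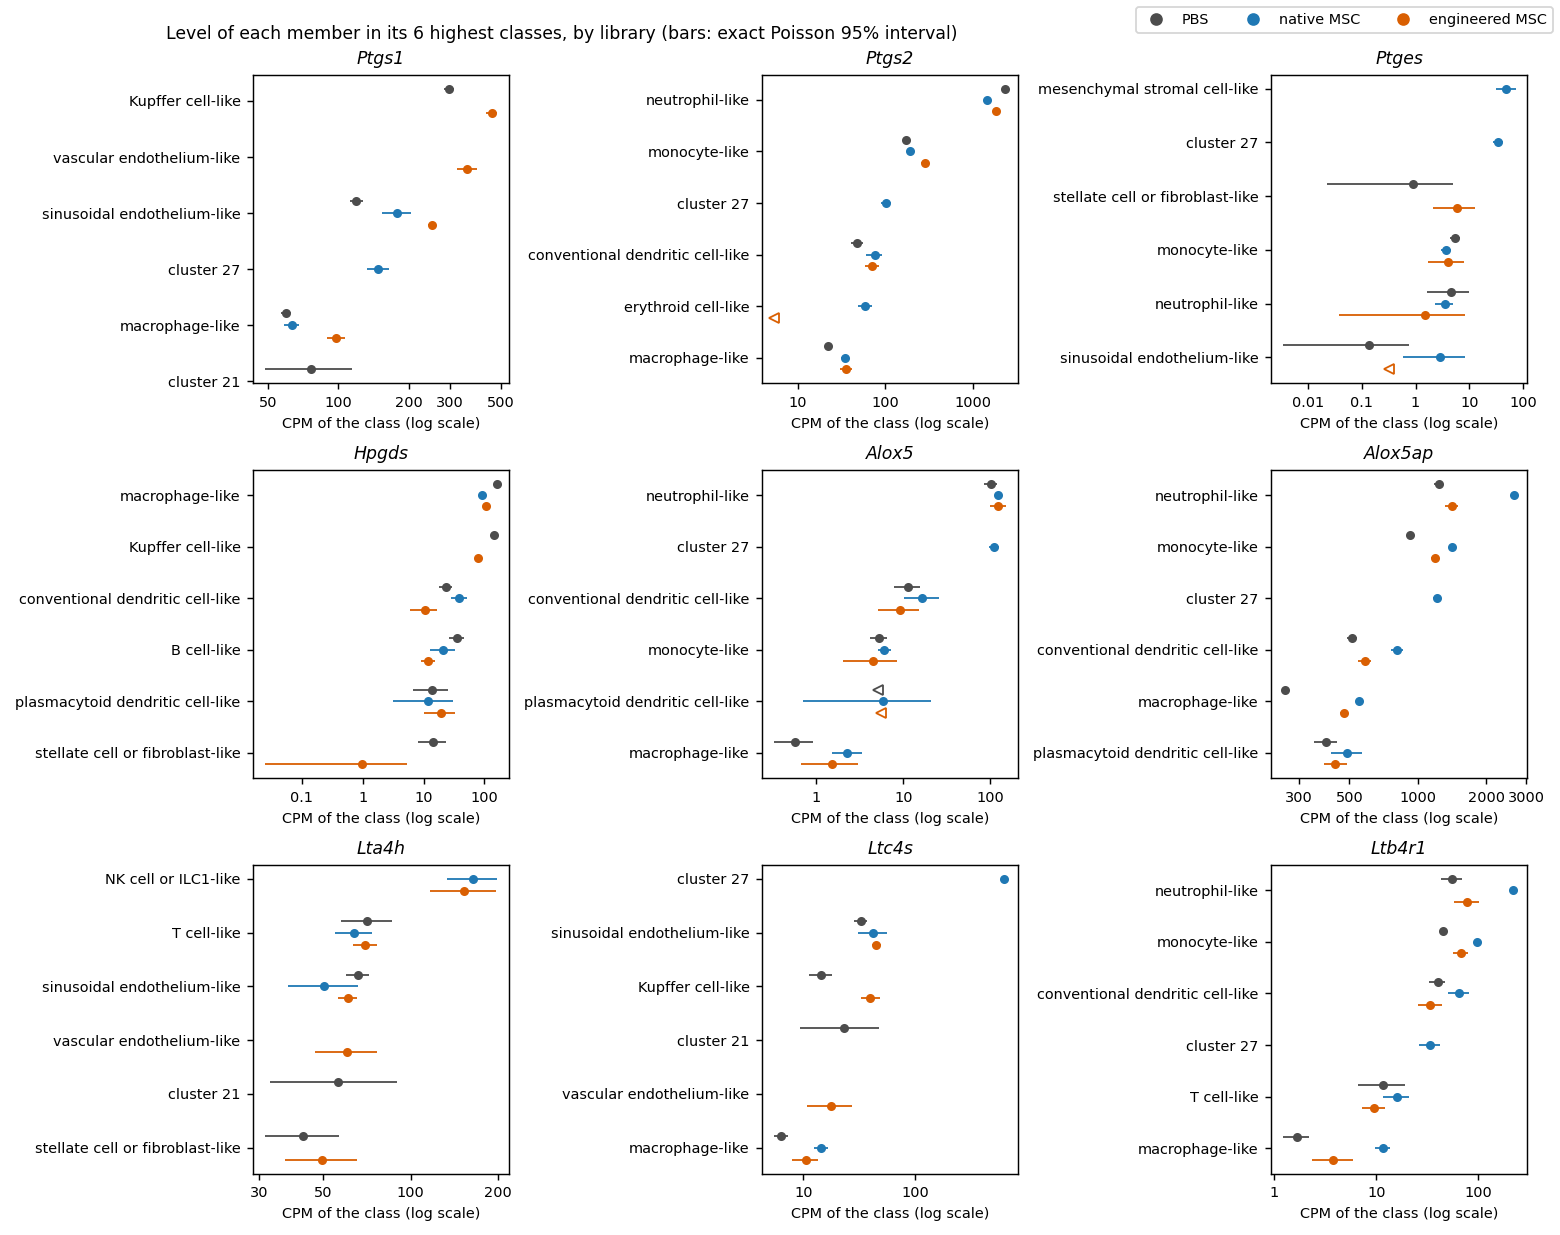
Level (CPM, log axis) of each of the 9 members in its 6 highest classes with at least 50 cells, with points coloured by library, 95% Poisson intervals, and open triangles at the upper bound where a library had 0 UMIs. Ptgs2, Alox5 and Ltb4r1 are highest in neutrophil-like cells, Ptgs1 in Kupffer cell-like and endothelial classes, and Hpgds in macrophage-like and Kupffer cell-like cells.

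Ptges, the inducible prostaglandin E synthase, was rare in the cells that held most Ptgs2. Only 6 of 614, 27 of 2492 and 1 of 241 neutrophil-like cells had a UMI of it. Monocyte-like cells held 52.4%, 32.5% and 15.4% of its UMIs. They stood at 5.45 CPM in PBS (4.37 to 6.71), 3.71 in native MSC (2.97 to 4.58) and 3.94 in engineered MSC (1.7 to 7.77), with overlapping intervals for each pair of libraries. The highest level was in cluster 30, which carried mesenchymal stromal cell markers and was led by Mgp, Clec3b, Mfap5 and Dpt. It had 46 cells in PBS at 73.1 CPM (43.3 to 116), 65 in native MSC at 48.1 (30.8 to 71.5) and 26 in engineered MSC at 35.5 (13 to 77.2). The PBS mouse, which received no stromal cells, had this cluster too.

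Hpgds, the haematopoietic prostaglandin D synthase, was a gene of macrophage-like and Kupffer cell-like cells. Macrophage-like cells stood at 159 CPM in PBS (154 to 163), 90.9 in native MSC (85.6 to 96.5) and 106 in engineered MSC (97.4 to 115). The native MSC level was 1.74-fold lower than that of PBS (1.63 to 1.87), past the fold. Kupffer cell-like cells stood at 145 CPM in PBS and 79.7 in engineered MSC, 1.82-fold lower (1.57 to 2.13).

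The macrophage difference was not present within clusters. Cluster 1, led by Gpnmb and Mmp12, held 1972 of the 2019 macrophage-like cells of PBS, and cluster 10, led by Spp1, Cbr2 and Pf4, held 840 of 873 in native MSC and 371 of 390 in engineered MSC. In cluster 10 Hpgds stood at 86.2, 86.7 and 105 CPM, a native MSC to PBS ratio of 1.01 (0.66 to 1.61). In cluster 1 it was 159 CPM in PBS and 165 in the 33 cells of native MSC. The lower Hpgds of the class in native MSC thus went with a change of clusters. In Kupffer cell-like cells it was 153 and 126 CPM in cluster 14 and 105 and 29.1 CPM in cluster 25, 3.59-fold lower in the latter (2.43 to 5.4). The class value also moved with the larger share of cluster 25 in engineered MSC. Summed hepatocyte markers in Kupffer cell-like cells, all 8 of 8 detected, were 211 CPM in PBS and 1990.5 in engineered MSC, and their part in the difference was not tested.

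Smaller amounts of Hpgds lay in lymphoid and dendritic classes. B cell-like cells had 34.8, 21.1 and 12 CPM, 2.89-fold lower in engineered MSC than in PBS (1.93 to 4.3). That ratio compares different clusters, since 594 of 595 cells of PBS were in cluster 13 and 1604 of 1617 cells of engineered MSC in cluster 4. Conventional dendritic cell-like cells had 23.3, 38.7 and 10.5 CPM, 3.7-fold lower in engineered MSC than in native MSC (2.09 to 6.87). Among macrophage-like cells of PBS, 84.2% of those with a Ptgs1 UMI had one of Hpgds, against 71.2% of those without, and the former had a median of 15052 UMIs against 10773.5.

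Alox5, the lipoxygenase itself, was concentrated in neutrophil-like cells and differed little between libraries there. It stood at 103 CPM in PBS (86.2 to 121), 122 in native MSC (115 to 130) and 125 in engineered MSC (99.4 to 154). The ratios were 1.19 for native MSC to PBS (1 to 1.43), 1.21 for engineered MSC to PBS (0.92 to 1.6) and 1.02 for engineered to native MSC (0.81 to 1.27). No other class with at least 50 cells in more than 1 library reached 20 CPM. Cluster 27, described below, had 202 cells in native MSC and 1 in PBS. It stood at 111 CPM of Alox5 in native MSC and held 17.4% of the Alox5 UMIs there. Conventional dendritic cell-like cells stood at 11.3, 16.5 and 9.23 CPM, monocyte-like cells at 5.2, 6.06 and 4.44, and macrophage-like cells at 0.564, 2.28 and 1.52. Neutrophil-like cells held 48.1%, 66.5% and 58.7% of all Alox5 UMIs. The library sum was 5.22-fold higher in native MSC than in PBS. This went with neutrophil-like shares of 26.6% and 6.44%, a ratio within the class of 1.19, and the UMIs of cluster 27. The macrophage-like level was 4.03-fold higher in native MSC than in PBS, from 27 and 16 UMIs. Summed neutrophil markers in macrophage-like cells were 66.5 CPM in PBS and 459 in native MSC, and their part was not tested. In clusters 3 and 7 the Alox5 levels were 97, 133 and 91.8 CPM, and 121, 117 and 170 CPM.

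Alox5ap, whose product hands arachidonic acid to the lipoxygenase, was spread over all myeloid classes. Neutrophil-like cells stood at 1235 CPM in PBS (1176 to 1295), 2655 in native MSC (2620 to 2691) and 1406 in engineered MSC (1318 to 1499). The native MSC level was 2.15-fold that of PBS (2.05 to 2.26), and the engineered MSC level was 1.89-fold lower than that of native MSC (1.77 to 2.02). Monocyte-like cells stood at 927, 1418 and 1190 CPM, with native MSC at 1.53-fold the level of PBS (1.5 to 1.56). Conventional dendritic cell-like cells had 512, 810.5 and 583 CPM, plasmacytoid dendritic cell-like cells 394, 487 and 433, and macrophage-like cells 260.4, 553 and 473. Native MSC was highest in each of these 5 classes.

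Within clusters the size of the Alox5ap difference varied. Cluster 7 stood at 1480 CPM in PBS, 3258 in native MSC and 2135 in engineered MSC, 2.2-fold higher in native MSC than in PBS (2 to 2.43). Cluster 3 stood at 1168, 1410 and 1122 CPM, a ratio of 1.21 (1.13 to 1.29), and cluster 29 at 1088 CPM in engineered MSC. In macrophage cluster 10 the levels were 553, 564 and 468 CPM, a native MSC to PBS ratio of 1.02 (0.86 to 1.21) and an engineered MSC to PBS ratio of 0.85 (0.71 to 1.01), so neither macrophage difference past the fold was present there. In monocyte clusters 0, 2 and 6 the native MSC to PBS ratio was 1.33, 1.45 and 1.03, against 1.53 in the class, and cluster 32 stood at 1101 CPM in engineered MSC.

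Alox5 and Alox5ap act together, and both were seen in the same neutrophil-like cells. Of those with an Alox5ap UMI, 20.2% in PBS, 32% in native MSC and 28.4% in engineered MSC also had Alox5, against 8.4%, 15.4% and 15.2% of those without. Cells with Alox5ap were deeper, with a median of 2207 against 1469 UMIs in PBS, and the part of depth was not tested.

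Alox5ap and Ptgs2 were also found at low levels in classes outside the myeloid lineages. The summed neutrophil markers of the same cells are given beside them. Whether these classes made the transcripts themselves was not tested. In B cell-like cells Alox5ap stood at 30.5, 50.1 and 9.75 CPM and the 9 neutrophil markers together at 79.4, 721 and 58.9 CPM. In hepatocyte-like cells Alox5ap stood at 21, 54.7 and 18.3 CPM and the neutrophil markers at 52.4, 772 and 54.7 CPM. In T cell-like cells the values were 21.2, 33.8 and 13.6 CPM beside 70.8, 434 and 69 CPM. In sinusoidal endothelium-like cells they were 23.6, 21.4 and 4.19 CPM beside 121, 420 and 91.6 CPM. In stellate cell or fibroblast-like cells they were 30.2 CPM in PBS and 7.77 in engineered MSC beside 89.8 and 155.3 CPM.

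From 8 to 9 of the 9 markers were detected in each of these. Alox5ap and the marker sum were both highest in native MSC in B cell-like, T cell-like and hepatocyte-like cells. They did not move together in sinusoidal endothelium-like cells between PBS and native MSC, nor in stellate cell or fibroblast-like cells, where Alox5ap was lower in engineered MSC and the marker sum higher. In erythroid cell-like cells Alox5ap was 81.1 CPM in native MSC and 4.35 in engineered MSC, beside 1021 and 36.2 CPM of neutrophil markers (9 and 3 of 9 detected). Ptgs2 was 59.5 CPM there in native MSC and had 0 UMIs in engineered MSC, at least 13.7-fold lower over a floor of 3 counts. Of the 13 pairs lower past the fold in engineered than in native MSC, 9 lay in such non-myeloid classes, as did 6 of the 7 lower in engineered MSC than in PBS. The part of neutrophil transcripts in them was not tested.

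Besides the Hpgds value of B cell-like cells and the erythroid values given above, these non-myeloid pairs were the following. Against PBS, engineered MSC was lower in Alox5ap in B cell-like cells (3.13-fold), sinusoidal endothelium-like cells (5.65-fold) and stellate cell or fibroblast-like cells (3.89-fold, from 34 and 8 UMIs). The stellate direction was reversed with doublets kept (log2 ratio 0.94) and with each cell counted alike (0.50). In sinusoidal endothelium-like cells engineered MSC was lower also for Ptgs2 (7.38 and 0.98 CPM, 7.54-fold) and Hpgds (5.06 and 1.87 CPM, 2.7-fold). The B cell and sinusoidal values come from different clusters in these 2 libraries, as given above. Within sinusoidal cluster 12, Alox5ap stood at 23.6 CPM in PBS and 8.02 in engineered MSC, while Hpgds was reversed, with 5.06 and 8.02 CPM, each of the engineered MSC values from 9 UMIs.

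Against native MSC, engineered MSC was lower in Alox5ap in B cell-like (5.13-fold), T cell-like (2.47-fold), hepatocyte-like (2.99-fold), sinusoidal endothelium-like (5.12-fold) and NK cell or ILC1-like cells (31 UMIs and 1 UMI). In T cell cluster 11, which both libraries shared, Alox5ap was 31.2 and 10.8 CPM. In hepatocyte-like cells engineered MSC was lower also for Ptgs2 (15.7 and 2.25 CPM, 6.95-fold) and Ltb4r1 (21 and 3 UMIs), and higher for Ptgs1 (4.73 and 11 CPM, 2.33-fold, 1.53 to 3.62). These hepatocyte values come from different clusters: 97.3% of the cells of native MSC were in cluster 9, and 67% and 26.4% of those of engineered MSC in clusters 8 and 16. In cluster 9 Ptgs1 stood at 4.28 and 4.46 CPM. Cluster 16 had Nrgn among its leading genes. At Leiden resolution 2, Nrgn, Itga2b, Ppbp and Gp9 led a separate cluster named megakaryocyte or platelet, with 342 cells of engineered MSC. The part of such cells in the hepatocyte-like Ptgs1 value was not tested. Other clusterings reversed Alox5ap and Ltb4r1 (log2 ratios 0.31 and 0.19 at Leiden resolution 0.5) and Ptgs1 (-0.59 at resolution 2), and in cluster 16 alone Alox5ap was reversed as well (0.88). Most of these pairs rest on levels far below those of the myeloid or endothelial classes that carry the same gene. In native MSC, hepatocyte-like cells were higher than in PBS for Alox5ap by 2.61-fold (1.82 to 3.87), and both libraries had nearly all of these cells in cluster 9.

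**Figure D5:**
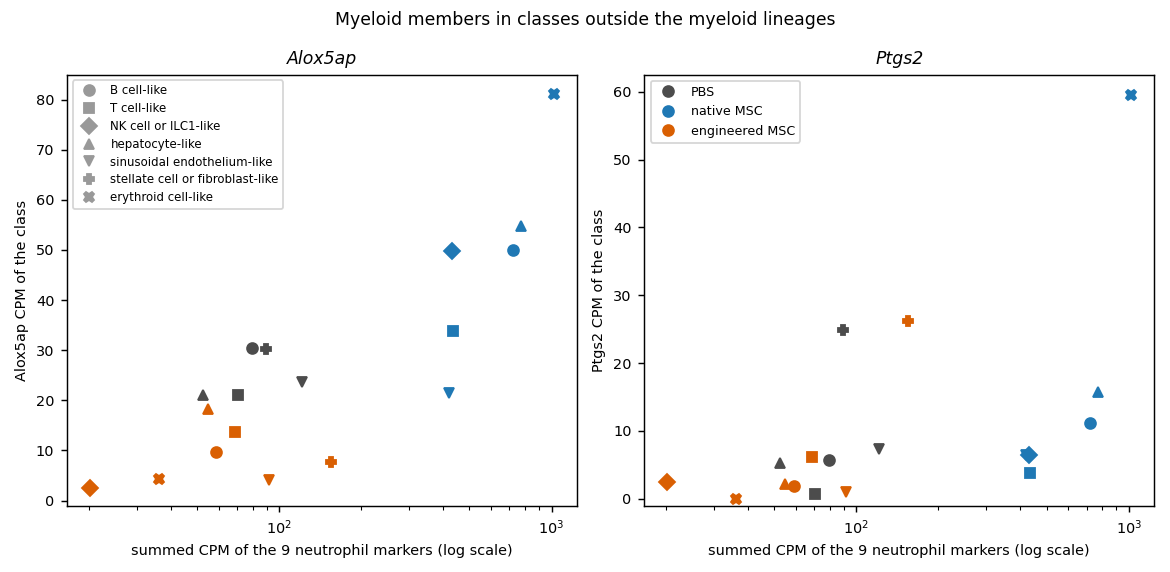
Level of Alox5ap and of Ptgs2 (CPM, linear vertical axes) in 7 non-myeloid classes (symbols) against the summed level of 9 neutrophil markers in the same class and library (CPM, log axis), coloured by library. The native MSC points lie furthest right, at 420 to 1021 CPM of neutrophil markers, with the erythroid cell-like point highest in both panels.

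Lta4h, the hydrolase that makes leukotriene B4, was the most evenly spread member. It stood at 164 CPM in native MSC (133 to 199) and 152 in engineered MSC (116 to 196) in NK cell or ILC1-like cells, with overlapping intervals. T cell-like cells had 70.8, 63.7 and 69.7 CPM, sinusoidal endothelium-like cells 65.7, 50.3 and 60.7, and monocyte-like cells 41.1, 38.8 and 46.4. No pair of libraries differed past the fold in any class. Neutrophil-like cells, which held most Alox5, had little Lta4h, at 11.2 CPM in PBS (15 UMIs), 25.2 in native MSC (202 UMIs) and 31.2 in engineered MSC (21 UMIs). After thinning, 0.353%, 2.21% and 2.56% of them had a UMI, against 5.08%, 5.76% and 6.4% of T cell-like cells.

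Ltc4s, the synthase of cysteinyl leukotrienes, had different main sources in the 3 livers. Sinusoidal endothelium-like cells held 37.5% of its UMIs in PBS and 62.1% in engineered MSC, at 32.7 CPM (28.7 to 37.1) and 45.1 CPM (41.3 to 49.3). The 93 such cells of native MSC stood at 41.9 CPM (30.6 to 56.1) but held only 2.22% of UMIs there. Kupffer cell-like cells stood at 14.3 CPM in PBS and 39.9 in engineered MSC, 2.79-fold higher (2.06 to 3.79), and the ratio was 1.93 in cluster 14 and 3.55 in cluster 25, the one with endothelial markers. Macrophage-like cells had 6.31, 14.4 and 10.5 CPM, 2.28-fold higher in native MSC than in PBS (1.84 to 2.83).

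In native MSC, 71.1% of Ltc4s UMIs lay in 1 cluster, number 27, which had 202 cells there, 1 in PBS and 2 in engineered MSC. It met no naming rule and was led by Alox15, Saa3, Prg4 and Serpinb2. Its levels were 627 CPM of Ltc4s (595 to 660), 111 of Alox5 (98 to 126), 1212 of Alox5ap, 148 of Ptgs1, 34.3 of Ptges (27.2 to 42.8) and 29.1 of Lta4h. Transcripts of all 3 parts of cysteinyl leukotriene synthesis were thus found in it, as well as those of both enzymes for prostaglandin E2.

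The 202 cells were of more than 1 kind. Alox15, whose product is another lipoxygenase, was found in 103 of them, and 97.4% of all Alox15 UMIs of native MSC were in these. The 103 cells had 888 CPM of Ltc4s (1248 of 1444 UMIs of the cluster), 169 of Alox5, 50.5 of Ptges, 207 of Ptgs1 and 321 of Ptgis, the prostacyclin synthase. The 99 without had 219, 21.2, 8.92, 54.7 and 3.35 CPM. The first set also had 1870 CPM of Adgre1, a macrophage gene, and 137 of Gata6, known from macrophages of the peritoneal cavity, against 358 and 5.58 CPM. The second had 88003 CPM of the haemoglobin gene Hbb-bs against 4758. This split was made after the values were seen, and with 1 mouse per group the infusion and the animal cannot be told apart.

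Ltb4r1, the receptor of leukotriene B4, was found in neutrophil-like, monocyte-like and conventional dendritic cell-like cells. Neutrophil-like cells stood at 55 CPM in PBS (43.2 to 69.1), 220 in native MSC (210 to 231) and 77.1 in engineered MSC (57.6 to 101). The native MSC level was 4-fold that of PBS (3.17 to 5.12), and the engineered MSC level was 2.85-fold lower than that of native MSC (2.17 to 3.84). The PBS and engineered MSC libraries had overlapping intervals. At least 1 UMI was found in 10.4%, 40.4% and 17% of these cells, and in 5.47%, 17.7% and 8.12% after thinning. B cell-like cells had 0 of 561 and 0 of 1566 after thinning in PBS and engineered MSC and 0.294% in native MSC.

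Unlike Ptgs2, the Ltb4r1 difference had the same direction in both neutrophil-like clusters. Cluster 3 stood at 47.1, 159 and 65.6 CPM, a native MSC to PBS ratio of 3.38 (2.51 to 4.62). Cluster 7 stood at 81.8, 249.8 and 120 CPM, a ratio of 3.05 (2.03 to 4.83). The engineered MSC level was 2.42-fold lower than that of native MSC in cluster 3 (1.3 to 5.09) and 2.08-fold lower in cluster 7 (1.39 to 3.26). These rest on 10 and 24 UMIs in engineered MSC. Cluster 29 stood at 56 CPM there (18 UMIs).

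Monocyte-like cells stood at 44.9 CPM of Ltb4r1 in PBS (41.7 to 48.3), 96.4 in native MSC (92.5 to 100.5) and 67.6 in engineered MSC (56.7 to 79.9). The native MSC level was 2.15-fold that of PBS (1.97 to 2.34). The native MSC to PBS ratio was 1.57 in monocyte cluster 0 (1.39 to 1.78) and 2.32 in cluster 2 (1.95 to 2.78). It was near 1 in cluster 6, the patrolling monocyte cluster, at 1.01 (0.81 to 1.26). Cluster 6 was 41.9% of the class in PBS and 15% in native MSC. Conventional dendritic cell-like cells stood at 39.9, 64.2 and 33.9 CPM. Macrophage-like cells had 1.66, 11.6 and 3.81 CPM, 7.01-fold higher in native MSC than in PBS (5 to 9.99). In cluster 10, however, they had 11.8, 12 and 4.22 CPM, and the PBS value there came from 3 UMIs. The engineered MSC level in cluster 10 was 2.85-fold lower than that of native MSC (1.78 to 4.82). Summed neutrophil markers in macrophage-like cells, all 9 of 9 detected, were 66.5, 459 and 127 CPM. Their part in these macrophage differences, and in those of Alox5ap, was not tested.

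Of classes too small to cluster, barcodes with markers of basophils or mast cells numbered 3 in PBS, 2 in native MSC and 16 in engineered MSC. The 16 held 286 CPM of Alox5 (175 to 441), 1157 of Ptgs2 (919 to 1439) and 1115 of Alox5ap (881 to 1391). They had 0 UMIs of Ltc4s, with an upper bound of 52.7 CPM. Both other libraries had too few such cells for a comparison.

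The genes whose levels were most like those of a member were found over 40 class and library profiles. Because profiles of 1 class share cells and libraries, the correlations are descriptions. Slc7a11, Il1b and Mcemp1 were most like Ptgs2 (r = 0.97 for Slc7a11), and Tfec, Plod1 and Tcn2 most like Ptgs1 (r = 0.9 for Tfec). C1qa and C1qc were among the 3 most like Hpgds, and Pirb, Gpr35 and Csf2rb most like Alox5ap. Among members, Ptgs2 had r = 0.89 with Alox5 and 0.86 with Ltb4r1.

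The 42 other genes of the pathway, from release of arachidonic acid to receptors, were counted in the same way. Of 216 pairs with enough UMIs, 29 were higher and 29 lower in engineered MSC than in PBS, or 13.4% each, beside 6.60% and 4.24% over all genes. Of 165 pairs, 22 were higher and 15 lower in native MSC than in PBS, or 13.3% and 9.09%, beside 3.31% and 4.27%. Of 192 pairs, 15 were higher and 15 lower in engineered than in native MSC, or 7.81% each, beside 5.58% and 2.51%. The median log2 ratios were 0, 0.06 and -0.09. From 30 to 31 of the 42 genes had at least 1 such pair.

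By role, engineered MSC against PBS had 9 of 47 pairs higher and 2 lower for genes of prostaglandin transport and breakdown (19.1% and 4.26%), and 1 of 42 higher and 9 lower for prostanoid synthases (2.38% and 21.4%). Genes of the leukotriene side had 12 of 64 higher and 13 lower, prostanoid receptors 1 of 29 and 3, arachidonate release 2 of 19 and 1, leukotriene receptors 3 of 12 and 0, and other lipoxygenases 1 of 3 and 1. Against the same 6.60% and 4.24% over all genes, the leukotriene side had 18.8% and 20.3%.

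Native MSC against PBS had 5 of 34 pairs higher and 4 lower for transport and breakdown, 1 of 34 and 6 for the synthases, 11 of 51 and 2 for the leukotriene side, 1 of 20 and 2 for prostanoid receptors, 2 of 14 and 1 for release, 1 of 9 and 0 for leukotriene receptors, and 1 of 3 and 0 for other lipoxygenases. In this order the shares higher were 14.7%, 2.94%, 21.6%, 5%, 14.3%, 11.1% and 33.3%, beside 3.31% over all genes. The shares lower were 11.8%, 17.6%, 3.92%, 10%, 7.14%, 0% and 0%, beside 4.27%. Engineered against native MSC had 7 of 40 and 2 for transport and breakdown, 0 of 36 and 1 for the synthases, 7 of 64 and 7 for the leukotriene side, 0 of 21 and 1 for prostanoid receptors, 0 of 17 and 4 for release, 0 of 11 and 0 for leukotriene receptors, and 1 of 3 and 0 for other lipoxygenases. Here the shares higher were 17.5%, 0%, 10.9%, 0%, 0%, 0% and 33.3%, beside 5.58% over all genes. The shares lower were 5%, 2.78%, 10.9%, 4.76%, 23.5%, 0% and 0%, beside 2.51%. The synthases were thus lower past the fold mainly in the comparisons with PBS, which share that library.

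Hpgd, the dehydrogenase that inactivates prostaglandins, stood at 328 CPM in Kupffer cell-like cells of PBS and 911 in engineered MSC, 2.78-fold higher. In Kupffer cluster 14 it was 345 CPM in PBS, 1048 in the 37 cells of native MSC and 1151 in engineered MSC. In macrophage cluster 10 it was 7.84, 56.3 and 157 CPM, so the order was the same within both clusters.

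Tbxas1, the thromboxane synthase, took the opposite direction in Kupffer cell-like cells, with 585 CPM in PBS and 292 in engineered MSC, and in cluster 14 with 625, 360.3 and 379 CPM. Macrophage-like cells had 577, 298 and 288 CPM of it, but within cluster 10 the levels were 306, 295 and 297 CPM. Slco2a1, the prostaglandin uptake carrier, was highest in sinusoidal endothelium-like cells, at 224, 450 and 327 CPM. In Kupffer cell-like cells it was 18.2 CPM in PBS and 95.8 in engineered MSC, but 6.18 and 13.3 CPM within cluster 14 and 81.4 and 186 in cluster 25.

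Ptger4, a receptor of prostaglandin E2, stood at 127.5 CPM in monocyte-like cells of PBS, 54.3 in native MSC and 76.4 in engineered MSC. In monocyte clusters 0 and 2 it was 106, 59.1 and 59.1 CPM, and 137, 42.4 and 60.1 CPM, so both libraries with infused cells lay below PBS. Cluster 6 had 129 CPM in PBS, 61.9 in native MSC and 192 in 23 cells of engineered MSC, and cluster 32 had 106 CPM in engineered MSC. Cysltr1, a receptor of cysteinyl leukotrienes, stood at 2.97, 26.9 and 29.7 CPM in neutrophil-like cells, and within cluster 3 at 2.83, 76.1 and 118 CPM (3, 198 and 18 UMIs).

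Anxa1, whose product restrains arachidonic acid release, stood at 202, 840 and 580 CPM in neutrophil-like cells, 4.15-fold higher in native MSC than in PBS and 2.87-fold higher in engineered MSC. In cluster 3 it was 139, 124 and 105 CPM and in cluster 7 it was 441, 1185 and 1060 CPM. Cluster 29, with 53.9% of the class in engineered MSC, stood at 507 CPM there. Cluster 7 was 19.5% of the class in PBS, 53.9% in native MSC and 19.9% in engineered MSC, so the class values moved with these shares as well as with the level in cluster 7. Cyp4f18, which inactivates leukotriene B4, stood at 471, 455 and 390 CPM in neutrophil-like cells, with no pair past the fold.

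Other pathway genes marked single classes. Pla2g4a, the phospholipase that frees arachidonic acid, was highest in Kupffer cell-like cells, at 198 CPM in PBS and 219.8 in engineered MSC, with no call there. Ptgis was highest in stellate cell or fibroblast-like cells, at 266 CPM in PBS and 99 in engineered MSC. Cbr1, a carbonyl reductase of prostaglandin E2, was a hepatocyte gene, at 299.5, 692.5 and 217 CPM, with the cluster difference given above for engineered MSC. Abcc1, which exports leukotriene C4, stood at 135 CPM in Kupffer cell-like cells of PBS and 60.7 in engineered MSC, and Abcc4, an exporter of prostaglandins, at 49.9 and 95.8 CPM. Cotl1, whose product binds the lipoxygenase of Alox5, stood at 1198, 899 and 732 CPM in macrophage-like cells. Cysltr2, another cysteinyl leukotriene receptor, was highest in NK cell or ILC1-like cells, at 70.6 CPM in native MSC and 73.5 in engineered MSC. Dpep1, which cleaves a cysteinyl leukotriene, reached 581 CPM in the 65 mesenchymal stromal cell-like cells of native MSC.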

How the data were processed

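Single-cell libraries of 3 mouse livers were used, 1 per group. Cell Ranger 7.1.0 and GRCm39 are named by the submitters' processing notes. The authors deposited whole-number counts (UMIs for each gene in each barcode), with no normalization. Cells needed 200 genes, 500 UMIs and a mitochondrial share of at most 20%. Scrublet (scanpy 1.11.5) scored doublets, and the highest 0.8% per 1000 barcodes were removed (911, 856 and 921 in PBS, native MSC and engineered MSC). Clustering used 2000 variable genes, 30 principal components, 15 neighbours and the Leiden method at resolution 1, without the 51 pathway genes and with no correction between libraries. A cluster was named from 25 marker lists by a mean log2 ratio of at least 0.5, 0.5 above the next lineage, with 3 markers over 1.5-fold. A cluster with none of its markers among its 10 leading genes needed a score of 2. That score, and the merging of patrolling monocytes, dendritic subsets and granule-rich neutrophils into their parent classes, were set after seeing the data. Free RNA was not subtracted.

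UMIs were summed per class and library, with exact Poisson, binomial (Clopper-Pearson) and conditional binomial 95% intervals. PCR copies are merged by UMIs, and the intervals cover counting error only. Named genes were the 9 members and, of 26 pathway genes with at least 100 CPM in a class or a myeloid pair past the fold, the 20 of highest level. The ratios were tested on simulated data at the depth of neutrophil-like cells in native MSC and PBS with 9789 unchanged genes, where 96.4% of intervals held the true ratio. Of genes changed 4-fold, 82% were past the fold, and of genes changed 2-fold, 28%. The simulated counts were independent Poisson counts, the model behind the intervals, so coverage near 95% was set by the design. They held no spread between cells, clusters or animals, so the coverage does not carry over to such spread. The members and gene lists were chosen with earlier results of these data known.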

Additional observations from a re-analysis of the deposited data

Results flagged for a closer look

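Alox5ap differed in opposite directions between classes in engineered MSC against PBS. Its log2 ratio was 0.86 in macrophage-like cells, but -1.64 in B cell-like cells, -2.5 in sinusoidal endothelium-like cells and -1.96 in stellate cell or fibroblast-like cells. The difference between these classes was not tested, since each is 1 library against 1. The macrophage, B cell and sinusoidal values came from different clusters in the 2 libraries, and the macrophage ratio was -0.24 in cluster 10 alone. The stellate value, from 34 and 8 UMIs, was reversed with doublets kept (0.94) and with each cell counted alike (0.50). Summed neutrophil markers in PBS and engineered MSC were 79.4 and 58.9 CPM in B cell-like cells, 121 and 91.6 in sinusoidal endothelium-like cells and 89.8 and 155.3 in stellate cell or fibroblast-like cells, with 8 or 9 of 9 markers detected in each.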

How the results depend on the processing

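No paired analysis was possible because each group is 1 library. Of 401 ratios recomputed under the alternatives, 324 stayed within their interval, 66 moved outside it and 11 reversed. This count includes the alternatives of at least 50 UMIs and of no minimum of UMIs per pair. These cannot change a ratio, and all 34 ratios stayed in each. In single clusters taken alone, most ratios moved or reversed. Reversed log2 ratios were, for Alox5ap in stellate cell or fibroblast-like cells of engineered MSC against PBS, 0.94 with doublets kept and 0.50 with each cell counted alike, and for engineered against native MSC in hepatocyte-like cells, 0.31 for Alox5ap and 0.19 for Ltb4r1 at Leiden resolution 0.5, -0.59 for Ptgs1 at resolution 2 and 0.88 for Alox5ap in cluster 16 alone. Taking single clusters, chosen after seeing the data, reversed Alox5ap in macrophage cluster 10 (-0.24) and Hpgds in sinusoidal cluster 12 (0.67) for engineered MSC against PBS, and Hpgds in macrophage clusters 1 and 10 (0.053 and 0.0081) and Ptgs2 in neutrophil cluster 3 (0.41) for native MSC against PBS.

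Counts of member pairs past the fold moved as follows. For engineered MSC against PBS, the 3 higher became 6 at 500 genes per cell, 5 at 10% mitochondrial UMIs, with doublets kept or with class totals without haemoglobin, mitochondrial, hepatocyte and neutrophil transcripts, 7 at resolution 0.5 or with each cell counted alike, and 1 at resolution 2, and the 7 lower became 12 with doublets kept. For native MSC against PBS, the 9 higher became 15 with doublets kept and 4 at resolution 2, and the 2 lower became 1 with each cell alike or with the reduced totals. For engineered against native MSC, the 1 higher became 0 at 10% mitochondrial UMIs or resolution 2, 2 at resolution 0.5 or with patrolling monocytes apart, and 4 with each cell alike, and the 13 lower became 23 with doublets kept. Among other pathway genes, engineered against native MSC had 27 lower with doublets kept and 9 higher at 50 UMIs per pair, and native MSC against PBS 14 higher at resolution 2. The pairs with enough UMIs and the shares over all genes under each alternative are not given beside these counts. The moves are therefore not read as results about the members, and their cause was not tested. Depth limits Ptges most, with 52 to 268 UMIs per library.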
